A study of Mus musculus with 6 samples.

Results

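The endothelial compartment of the liver was examined in whole-liver RNA through 39 genes that endothelial cells are known for. All 39 are among the 24346 genes of the deposited table. They were chosen with earlier results of these data known, and sorted by textbook use into 12 sinusoidal genes, 21 pan-endothelial genes and 6 vascular genes, the last being used mainly by larger vessels or by capillaries that have lost their sinusoidal character. The livers came from 6 male mice of strain C57/BL6, 8 weeks old, all killed 24 h after 1 intraperitoneal injection of CCl4 (0.6 μl per g body weight) in sunflower oil. CCl4 is a toxin which the hepatocytes near the central vein convert to a damaging radical. The 3 control mice carried floxed *Med23* alleles without the recombinase (*med23*f/f, labelled wt), and the 3 others carried the same alleles with *Albumin*-cre (*med23*Δli, labelled med23 ko and called knockout-labelled here). *Albumin*-cre acts in hepatocytes, so endothelial cells of both groups should keep *Med23*. No mice without CCl4 are part of the comparison.

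Liver sinusoids are lined by a specialised endothelium with open pores and no basement membrane, which clears waste macromolecules from the blood through scavenger receptors and lectins. These cells carry the growth factor receptors and junction proteins of all endothelium, and they send signals such as BMP and Wnt ligands to neighbouring hepatocytes. After injury or in fibrosis they can lose the sinusoidal genes while genes of other vessels rise, a change of state called capillarisation. In RNA of a whole organ, fewer cells of a type and less RNA per cell cannot be told apart.

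Expression was deposited as FPKM, a unit corrected for transcript length and sequencing depth, so levels of different genes can be set side by side. FPKM values keep no read counts, and the depth behind each library is unknown here. Only the variation among mice can therefore serve as error, and values written with ± are means and SD of 3 livers. The *Med23* transcript measured 3.42, 2.97 and 4.14 FPKM in controls and 3.40, 3.40 and 2.91 FPKM in knockout-labelled mice. The group means, 3.51 ± 0.589 and 3.24 ± 0.286 (SD, n = 3 each), differ by less than the spread between replicates. A value for the whole gene need not show the loss of part of it, nor the loss from 1 cell type. Since whole-liver *Med23* does not tell the groups apart, every direction below rests on the labels. Libraries listed 7628 to 9341 genes at 0, and the median of the tested genes was 7.83 to 8.43 FPKM, with the groups overlapping in both.

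Most sinusoidal and pan-endothelial genes, and some vascular ones, were lower in the knockout-labelled livers. Of the 39 genes, 37 passed the filter on low values (0.5 FPKM or more on average over the 6 libraries) and were tested with limma on the log2(FPKM + 0.1) scale. At an adjusted p under 0.05 (Benjamini-Hochberg over all 11956 genes tested), 26 were lower and 0 higher, where 9.48% of all genes tested were lower and 11.6% higher. At an unadjusted p under 0.05, 32 were lower and 0 higher, beside 17.1% and 20.5% of all genes. Both the adjusted p and a change of more than 2-fold were met by 13 genes, all of them lower, against 3.45% of all genes lower and 4.45% higher. In 31 of the 37 genes all knockout-labelled values lay under all control values, which held for 20.4% of all genes, and in 0 the order was the opposite, which held for 23.3% of all genes. The median log2 fold change was −0.82, beside 0.02 over all genes tested. The 26 genes called lower stood at 32.1% to 71.4% of the control mean in FPKM, with a median of 50.4%. Leaving out knockout replicate 1 reduced the number called lower to 16, where only 2.96% of all genes were still called lower.

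**Figure D1:**
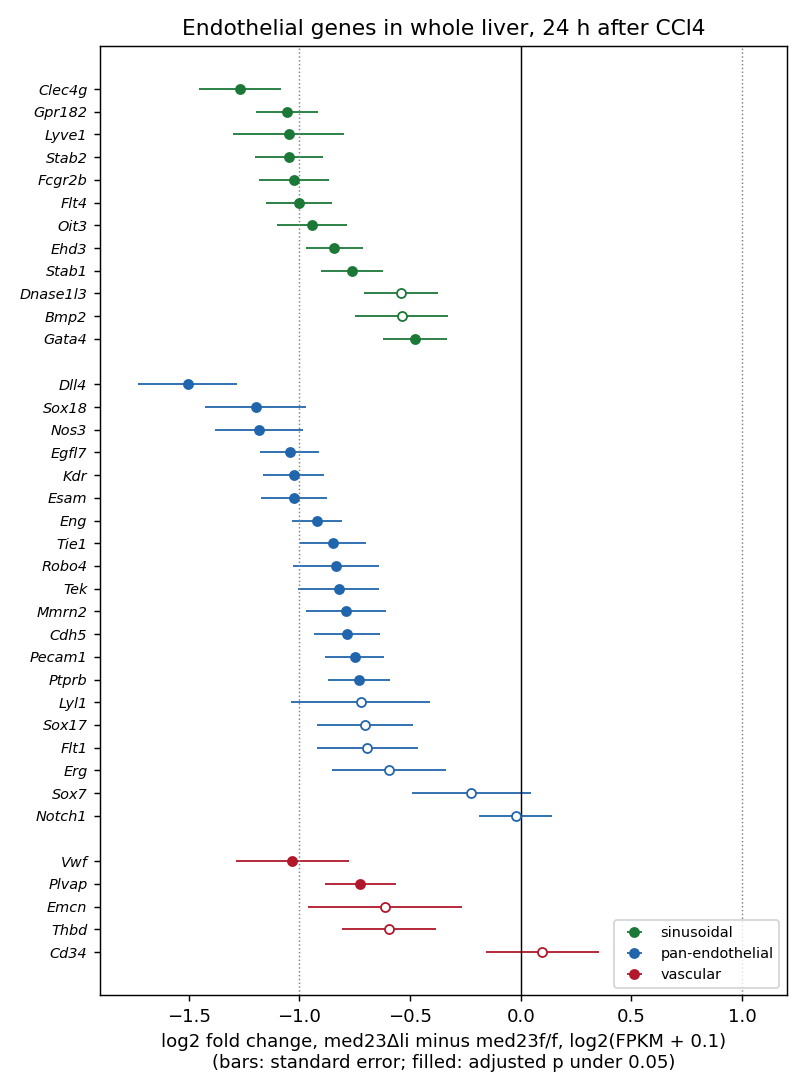
Log2 fold change (knockout-labelled livers minus med23f/f, on the log2(FPKM + 0.1) scale) of the 37 tested endothelial genes, grouped by class, with the standard error from limma as bars and filled points for an adjusted p under 0.05. Points lie to the left of 0 in 36 of the 37 genes, beside 47.8% of all genes tested, the exception being Cd34, and dotted lines mark a 2-fold change.

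The calls were uneven over expression levels. Split at a mean of 2 FPKM, a value chosen after the data were seen, 22 of 26 better expressed members were called lower, and 4 of 11 poorly expressed ones. Among all genes the shares called lower were 9.85% and 7.91%. Exons of 13 members overlap exons of another annotated gene, which is protein coding for 6 of them (*Stab1* with *Nt5dc2*, *Gpr182* with *Zbtb39*, *Eng* with *Fpgs*, *Egfl7* with *Agpat2*, *Nos3* with *Atg9b* and *Lyl1* with *Nfix*). No source used here says that reads were assigned by strand, so such values can include the neighbour. Of the 24 tested members without any such overlap, 17 were called lower and 0 higher. Members not called include *Sox7*, *Sox17*, *Erg*, *Flt1* and *Lyl1*, whose means were all under 2 FPKM.

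As many members fell together, the bases before their transcription starts were read. RefSeq promoter windows on GRCm38.p6 were at hand for 20 of the 39 members (25 windows, as *Egfl7*, *Erg* and *Tal1* have more than 1 start), and the 250 bases before each start were searched on both strands for 4 motifs, AGGAAG (read by ETS factors such as ERG), GATAA (GATA factors), and ACAATG and ACAAAG (SOX factors). AGGAAG was present in 12 of 25 windows (48%) and in 8 of the 15 windows of members called lower (53.3%), beside 29.5% of all 32851 windows. GATAA was in 12% of the members' windows, 6.67% of those of members called lower and 22.6% of all. The same shares were 8%, 6.67% and 10.7% for ACAATG and 12%, 20% and 16.5% for ACAAAG, where 3 of the 15 windows of members called lower held it. A match is only a string of letters and no evidence of binding. The 5 windows shown are from members with a single start whose window overlaps no annotated exon, and they cover sinusoidal and pan-endothelial genes that were called lower (*Clec4g*, *Stab1*, *Eng*, *Tek*) and 1 that was not (*Flt1*). *Lyl1*, also not called, has the only other such window, which holds none of the motifs and is not shown. They are written 5′ to 3′ along the gene, ending at the base before the start, with matches to the motifs or their reverse complements in capitals.
Clec4g, chr8:3720652-3720901, minus strand: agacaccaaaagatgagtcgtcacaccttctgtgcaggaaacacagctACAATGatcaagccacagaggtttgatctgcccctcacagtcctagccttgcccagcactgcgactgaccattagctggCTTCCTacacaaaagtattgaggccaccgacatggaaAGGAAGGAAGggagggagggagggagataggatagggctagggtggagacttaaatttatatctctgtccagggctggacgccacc
Stab1, chr14:31168642-31168891, minus strand: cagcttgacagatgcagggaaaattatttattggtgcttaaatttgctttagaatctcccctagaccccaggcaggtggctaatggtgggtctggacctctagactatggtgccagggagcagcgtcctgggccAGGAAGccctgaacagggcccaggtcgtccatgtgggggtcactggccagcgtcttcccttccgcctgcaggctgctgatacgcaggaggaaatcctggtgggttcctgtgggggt
Eng, chr2:32646345-32646594, plus strand: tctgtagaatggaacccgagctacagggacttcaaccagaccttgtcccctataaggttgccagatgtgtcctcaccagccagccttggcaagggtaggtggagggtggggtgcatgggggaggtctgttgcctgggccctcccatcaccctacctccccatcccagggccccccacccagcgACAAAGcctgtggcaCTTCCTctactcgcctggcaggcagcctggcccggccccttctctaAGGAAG
Tek, chr4:94739039-94739288, plus strand: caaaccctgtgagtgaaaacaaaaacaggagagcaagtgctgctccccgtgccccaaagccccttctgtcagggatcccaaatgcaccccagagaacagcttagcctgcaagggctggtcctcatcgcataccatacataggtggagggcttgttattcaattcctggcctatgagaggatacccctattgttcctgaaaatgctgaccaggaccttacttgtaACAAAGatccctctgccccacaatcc
Flt1, chr5:147726012-147726261, minus strand: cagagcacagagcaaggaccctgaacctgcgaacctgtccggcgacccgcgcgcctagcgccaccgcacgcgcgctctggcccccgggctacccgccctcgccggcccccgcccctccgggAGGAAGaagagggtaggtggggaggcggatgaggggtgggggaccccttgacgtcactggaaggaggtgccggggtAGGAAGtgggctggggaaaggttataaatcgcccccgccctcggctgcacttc

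In *Clec4g* the AGGAAG matches lie 123, 86 and 82 bases before the start, the last pair overlapping, and ACAATG lies 202 bases before it. *Stab1* has 1 AGGAAG match, 116 bases before the start. *Eng* has AGGAAG matches 52 and 6 bases before the start and ACAAAG at 67, whereas *Tek* has only ACAAAG, at 26. *Flt1*, which did not pass the test, has AGGAAG at 129 and 53.

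In the sinusoidal class nearly every gene passed the test. All 12 of its genes were tested, 10 were called lower and 0 higher, and in all 12 the knockout-labelled livers lay below the controls without overlap, beside 9.48% of all genes called lower, 11.6% called higher and 20.4% below without overlap. The median log2 fold change was −0.97, with a range from −1.27 (*Clec4g*) to −0.48 (*Gata4*). The scavenger receptors and lectins stood at between 40.6% and 58.3% of their control means. Control livers held 51.0, 83.9 and 64.5 FPKM of *Clec4g*, where the knockout-labelled ones held 27.9, 26.4 and 26.7. *Clec4g* encodes LSECtin, a lectin of the sinusoidal surface (ENSMUSG00000074491.9, chr8:3707064-3720651, minus strand on GRCm38), and its mean fell to 40.6% of the control mean (log2 fold change −1.27, standard error 0.18, adjusted p = 0.00574, limma). For *Stab2*, the controls gave 5.35, 5.24 and 6.53 FPKM and the knockout-labelled mice 2.83, 2.81 and 2.48. *Stab2* encodes stabilin-2, the main scavenger receptor for hyaluronan (ENSMUSG00000035459.18, chr10:86841198-87008025, minus strand), and fell from 5.71 ± 0.716 to 2.70 ± 0.197 FPKM (SD, n = 3 each; log2 fold change −1.05, standard error 0.15, adjusted p = 0.00574, limma). Every control liver lay above every other liver for both genes, and the knockout-labelled livers were closer to each other than the controls were.

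*Lyve1* stood at 5.50, 8.41 and 10.5 FPKM in the controls, against 3.63, 4.61 and 3.15 FPKM in the knockout-labelled livers. *Lyve1*, a hyaluronan receptor of sinusoidal and lymphatic endothelium, had the widest control spread relative to its mean of these receptors (log2 fold change −1.05, adjusted p = 0.0254, limma), a call that was lost without control replicate 2 (adjusted p = 0.0623), knockout replicate 1 (0.0852) or knockout replicate 3 (0.0913). Control livers held 8.65, 11.0 and 10.2 FPKM of *Stab1*, where the knockout-labelled ones held 6.02, 5.91 and 5.48. *Stab1* encodes stabilin-1, a scavenger receptor that macrophages also carry (log2 fold change −0.76, adjusted p = 0.0111, limma). For *Fcgr2b*, the controls gave 28.0, 33.1 and 23.5 FPKM and the knockout-labelled mice 14.9, 13.7 and 12.5. *Fcgr2b*, the inhibitory Fc receptor through which sinusoidal cells clear immune complexes, fell to 48.6% of the control mean (log2 fold change −1.02, adjusted p = 0.00686, limma), with the reservation that part of its sequence is closely similar to *Fcgr3*.

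Of the remaining sinusoidal genes, *Gpr182* encodes an atypical receptor that takes up chemokines (log2 fold change −1.06, adjusted p = 0.00426, limma). *Gpr182* stood at 16.9, 17.9 and 16.2 FPKM in the controls, against 9.49, 7.57 and 7.46 FPKM in the knockout-labelled livers. Control livers held 8.04, 9.44 and 9.12 FPKM of *Oit3*, where the knockout-labelled ones held 5.13, 3.82 and 4.81 (log2 fold change −0.94, adjusted p = 0.00813, limma), and it encodes a secreted protein known as a marker of these cells. For *Ehd3*, the controls gave 10.0, 10.7 and 10.2 FPKM and the knockout-labelled mice 5.93, 5.95 and 5.21 (log2 fold change −0.84, adjusted p = 0.00626, limma), and its product acts in endosome recycling. For each of these genes the lowest control liver lay above the highest liver of the other group. *Flt4* stood at 4.36, 4.96 and 4.84 FPKM in the controls, against 2.45, 2.43 and 2.06 FPKM in the knockout-labelled livers (log2 fold change −1.0, adjusted p = 0.00621, limma). *Flt4* encodes VEGFR3, the receptor for VEGF-C.

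The smallest changes of the class were those of a transcription factor, a ligand and a nuclease. Control livers held 7.42, 6.34 and 7.59 FPKM of *Gata4*, where the knockout-labelled ones held 5.11, 4.61 and 5.52. *Gata4*, a factor that maintains sinusoidal identity and is also used by stellate cells, barely passed (log2 fold change −0.48, adjusted p = 0.0491, limma), and without control replicate 1 (adjusted p = 0.105), control replicate 3 (0.0782), knockout replicate 1 (0.149), knockout replicate 2 (0.176) or knockout replicate 3 (0.0896) it did not pass. For *Bmp2*, the controls gave 3.42, 4.67 and 5.99 FPKM and the knockout-labelled mice 3.26, 3.13 and 2.97. *Bmp2*, a ligand by which sinusoidal cells act on hepatocyte iron metabolism, did not pass (log2 fold change −0.54, adjusted p = 0.102, limma) except without control replicate 1 (adjusted p = 0.0357). *Dnase1l3* stood at 8.53, 8.31 and 7.61 FPKM in the controls, against 6.94, 4.97 and 4.99 FPKM in the knockout-labelled livers. *Dnase1l3*, a secreted nuclease that degrades DNA in blood, missed the threshold narrowly (log2 fold change −0.54, adjusted p = 0.0533, limma). For *Gata4*, *Bmp2* and *Dnase1l3* the groups still did not overlap, and the smallest p that an exact permutation test of 3 against 3 can give, 0.1, was reached.

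**Figure D2:**
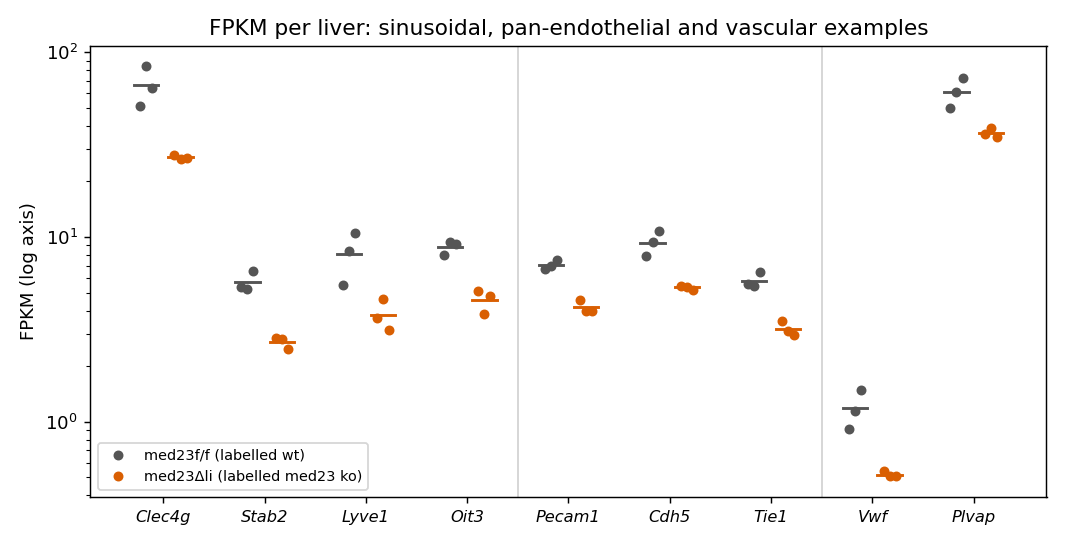
FPKM (log axis) of 9 genes in each liver, with sinusoidal genes on the left, pan-endothelial genes in the middle and vascular genes on the right; points stand for livers and short lines for group means (med23f/f grey, knockout-labelled livers orange). In each gene the orange points lie below the grey ones, as for Clec4g, with 26.4 to 27.9 against 51.0 to 83.9 FPKM.

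The pan-endothelial class held 21 genes. Of the 20 that were tested, 14 were called lower and 0 higher, with a median log2 fold change of −0.81 and a range from −1.5 (*Dll4*) to −0.02 (*Notch1*). The groups did not overlap in 16 of them, all lower. Of all genes, 9.48% were called lower and 20.4% were lower without overlap. Control livers held 6.71, 7.00 and 7.52 FPKM of *Pecam1*, where the knockout-labelled ones held 4.56, 3.98 and 3.97. *Pecam1*, the gene of CD31 (ENSMUSG00000020717.19, chr11:106654217-106750628, minus strand on GRCm38), fell to 58.9% of the control mean (log2 fold change −0.75, standard error 0.13, adjusted p = 0.0102, limma). For *Cdh5*, the controls gave 7.86, 9.37 and 10.8 FPKM and the knockout-labelled mice 5.45, 5.39 and 5.16. *Cdh5*, the gene of VE-cadherin, which joins endothelial cells, was called lower as well (log2 fold change −0.78, standard error 0.15, adjusted p = 0.0126, limma), but not without knockout replicate 1 (adjusted p = 0.0553), knockout replicate 2 (0.0503) or knockout replicate 3 (0.0527). The control livers agreed more closely for *Pecam1* than for *Cdh5*.

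*Esam* stood at 10.2, 11.7 and 11.4 FPKM in the controls, against 5.72, 5.97 and 4.61 FPKM in the knockout-labelled livers (log2 fold change −1.02, adjusted p = 0.00567, limma). *Esam* encodes an adhesion molecule of tight junctions. Control livers held 26.5, 27.6 and 27.7 FPKM of *Eng*, where the knockout-labelled ones held 14.4, 14.4 and 14.2. *Eng*, which encodes endoglin, a co-receptor for BMP9 and TGF-β, had the smallest adjusted p of all members (log2 fold change −0.92, standard error 0.11, adjusted p = 0.00346, limma) and its fold change moved only between −0.94 and −0.91 when each library was left out. For *Egfl7*, the controls gave 24.5, 28.6 and 25.1 FPKM and the knockout-labelled mice 13.1, 13.3 and 11.4. *Egfl7*, a secreted factor of blood vessels whose locus also holds a microRNA gene, fell to 48.3% of the control mean (log2 fold change −1.04, adjusted p = 0.00375, limma). Every liver of the knockout-labelled group lay below all controls for *Esam*, *Eng* and *Egfl7*.

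The calls on *Ptprb*, *Robo4* and *Mmrn2* were lost in some fits with 1 liver left out. Without knockout replicate 1, 2 or 3, only 2.96%, 3.71% or 3.55% of all genes were called lower, beside 9.48% with all 6 libraries. Over the fits without 1 library the log2 fold changes ran from −0.76 to −0.70 (*Ptprb*), −0.94 to −0.70 (*Robo4*) and −0.82 to −0.76 (*Mmrn2*). *Ptprb* stood at 3.80, 3.79 and 3.77 FPKM in the controls, against 2.24, 2.16 and 2.34 FPKM in the knockout-labelled livers. *Ptprb*, the gene of the phosphatase VE-PTP, acts on junctions and on TIE2 (log2 fold change −0.73, adjusted p = 0.0124, limma). Control livers held 3.47, 4.78 and 3.79 FPKM of *Robo4*, where the knockout-labelled ones held 2.29, 2.54 and 1.79. *Robo4* encodes a guidance receptor of endothelium (log2 fold change −0.84, adjusted p = 0.0231, limma). For *Mmrn2*, the controls gave 1.81, 1.65 and 1.74 FPKM and the knockout-labelled mice 0.913, 0.990 and 0.977. *Mmrn2* encodes a matrix protein laid down by endothelium (log2 fold change −0.79, adjusted p = 0.0223, limma). *Ptprb* did not pass without knockout replicate 1 (adjusted p = 0.0624) or knockout replicate 2 (0.0576), *Robo4* not without control replicate 2 (adjusted p = 0.0527), knockout replicate 1 (0.0751) or knockout replicate 3 (0.0789), and *Mmrn2* not without control replicate 1 (adjusted p = 0.0539), knockout replicate 1 (0.0940), knockout replicate 2 (0.0729) or knockout replicate 3 (0.0648).

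The receptor tyrosine kinases for VEGF and angiopoietins included called and uncalled genes. *Kdr* stood at 4.96, 4.97 and 4.91 FPKM in the controls, against 2.54, 2.38 and 2.22 FPKM in the knockout-labelled livers. *Kdr*, the gene of VEGFR2, the main signalling receptor for VEGF-A (ENSMUSG00000062960.10, chr5:75932827-75978458, minus strand), thus stood at 48.2% of its control mean, with little spread in either group (log2 fold change −1.03, standard error 0.14, adjusted p = 0.00426, limma). Control livers held 5.55, 5.43 and 6.44 FPKM of *Tie1*, where the knockout-labelled ones held 3.53, 3.08 and 2.93 (log2 fold change −0.85, adjusted p = 0.00949, limma). For *Tek*, the controls gave 2.39, 2.0 and 2.73 FPKM and the knockout-labelled mice 1.24, 1.36 and 1.26 (log2 fold change −0.82, adjusted p = 0.0206, limma). *Tek* encodes TIE2, the angiopoietin receptor, and *Tie1* its partner. The call on *Tek* was lost without control replicate 1 (adjusted p = 0.0501), knockout replicate 1 (0.0846), knockout replicate 2 (0.0646) or knockout replicate 3 (0.0679). *Flt1*, which encodes VEGFR1, a receptor that also acts as a decoy for VEGF-A, had 1.41 ± 0.236 and 0.831 ± 0.135 FPKM (SD, n = 3 each) and did not pass (log2 fold change −0.69, adjusted p = 0.0638, limma), although its groups did not overlap.

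The largest fall of any member was in the Notch ligand *Dll4*, which marks arterial and sprouting endothelium. With a pseudocount of 1 this order changed, and *Clec4g* fell further than *Dll4* (log2 fold change −1.24 against −0.92). *Dll4* stood at 1.81, 2.38 and 2.75 FPKM in the controls, against 0.817, 0.769 and 0.644 FPKM in the knockout-labelled livers. Its mean fell to 32.1% of the control mean (log2 fold change −1.5, standard error 0.22, adjusted p = 0.00614, limma). Its receptor *Notch1*, which hepatocytes, immune cells and cholangiocytes also use, had 3.55 ± 0.554 and 3.48 ± 0.315 FPKM, and its fold change lay near 0 (log2 fold change −0.02, adjusted p = 0.938, limma; 95% interval −0.40 to 0.36). Control livers held 2.55, 3.51 and 3.75 FPKM of *Nos3*, where the knockout-labelled ones held 1.52, 1.31 and 1.27. *Nos3*, the endothelial nitric oxide synthase, fell to 41.8% (log2 fold change −1.18, standard error 0.20, adjusted p = 0.00847, limma).

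Of the transcription factors in this class, *Sox18* alone passed the test. For *Sox18*, the controls gave 5.34, 10.2 and 7.61 FPKM and the knockout-labelled mice 2.90, 3.46 and 3.25 (log2 fold change −1.2, standard error 0.23, adjusted p = 0.0126, limma), and its adjusted p was above 0.05 without knockout replicate 1 (adjusted p = 0.0552). *Sox17* had 1.08 ± 0.0915 and 0.626 ± 0.0312 FPKM (log2 fold change −0.70, adjusted p = 0.0550, limma), with groups that did not overlap. *Sox7*, the remaining SOXF gene, had 0.658 ± 0.0604 and 0.554 ± 0.108 FPKM (log2 fold change −0.22, adjusted p = 0.573, limma; 95% interval −0.84 to 0.40), and here the groups overlapped. *Erg*, an ETS factor that keeps endothelial genes on, had 1.2 ± 0.288 and 0.747 ± 0.112 FPKM (log2 fold change −0.60, adjusted p = 0.133, limma). *Lyl1* and *Tal1*, which blood cell precursors share with endothelium, were at 1.22 ± 0.313 and 0.709 ± 0.259 FPKM (log2 fold change −0.72, adjusted p = 0.132, limma) and at 0.418 ± 0.131 and 0.362 ± 0.177 FPKM in the control livers and in the knockout-labelled livers, and *Tal1* lay under the filter.

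In the vascular class, 2 of 5 tested genes were called lower and 0 higher, beside 9.48% and 11.6% of all genes, with a median log2 fold change of −0.61. The number called lower was 0 without knockout replicate 1, 2 or 3, where 2.96%, 3.71% and 3.55% of all genes were called lower. It was 1 without control replicate 2 or 3 (6.3% and 11.9% of all genes) and 3 without control replicate 1 (6.79%). *Plvap* stood at 49.8, 61.0 and 72.6 FPKM in the controls, against 36.0, 38.9 and 34.8 FPKM in the knockout-labelled livers. *Plvap*, the gene of the diaphragm protein of fenestrae and a mark of capillarised or portal vessels, was with *Clec4g* the most abundant member and fell to 59.8% of the control mean (log2 fold change −0.73, standard error 0.16, adjusted p = 0.0199, limma), a call lost without knockout replicate 1 (adjusted p = 0.0788), knockout replicate 2 (0.0603) or knockout replicate 3 (0.0716). Control livers held 0.916, 1.14 and 1.49 FPKM of *Vwf*, where the knockout-labelled ones held 0.539, 0.505 and 0.508. *Vwf*, the gene of von Willebrand factor, which larger vessels and megakaryocytes make (ENSMUSG00000001930.17, chr6:125546774-125686679, plus strand), fell to 43.7% (log2 fold change −1.03, standard error 0.26, adjusted p = 0.0279, limma). At this low level the call on *Vwf* was lost without control replicate 2 (adjusted p = 0.0581), control replicate 3 (0.0531), knockout replicate 1 (0.0877), knockout replicate 2 (0.0853) or knockout replicate 3 (0.0779).

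The other vascular genes did not pass. For *Thbd*, the controls gave 6.93, 8.89 and 12.6 FPKM and the knockout-labelled mice 6.13, 6.31 and 5.73. *Thbd*, the gene of thrombomodulin, did not overlap between the groups (log2 fold change −0.60, adjusted p = 0.0811, limma) and passed only without control replicate 1 (adjusted p = 0.0354). *Emcn* stood at 3.28, 2.04 and 1.5 FPKM in the controls, against 2.13, 1.04 and 1.16 FPKM in the knockout-labelled livers. *Emcn*, a sialomucin of capillaries and veins, overlapped between the groups, with control replicate 1 the highest (log2 fold change −0.61, adjusted p = 0.233, limma). Control livers held 0.869, 0.717 and 0.607 FPKM of *Cd34*, where the knockout-labelled ones held 0.652, 0.890 and 0.823. *Cd34*, a surface protein of capillaries outside the sinusoids, was the only tested member with a fold change above 0 (log2 fold change 0.10, adjusted p = 0.806, limma; 95% interval −0.49 to 0.68), and without control replicate 3 its fold change was −0.01. *Aplnr*, the apelin receptor, was listed at 0 in 5 libraries and at 0.0897 FPKM in knockout replicate 2.

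Set against each other, sinusoidal and pan-endothelial genes were both lower in the knockout-labelled livers. The mean of log2(FPKM + 0.1) over the tested sinusoidal members was 3.25, 3.47 and 3.46 in the control livers and 2.61, 2.50 and 2.43 in the knockout-labelled livers, and that over the pan-endothelial members was 1.84, 1.96 and 2.05 and 1.12, 1.16 and 1.11. The sinusoidal mean minus the pan-endothelial mean of the same library, which a constant added to all log2 values of a library does not move, was 1.44 ± 0.0572 in the controls and 1.38 ± 0.0921 in the others (SD, n = 3 each). That difference between the groups, −0.06, is smaller than the spread among knockout-labelled livers, but its size depended on the setting. It was −0.17 with a pseudocount of 1 and −0.034 with a pseudocount of 0.01. Without knockout replicate 1, 2 or 3 it was −0.11, −0.036 or −0.027, and without control replicate 2 it was −0.025. The vascular mean minus the pan-endothelial mean was 0.12 ± 0.0673 and 0.37 ± 0.0792, while the vascular mean itself went from 2.07 ± 0.0569 to 1.5 ± 0.0757. These differences did not overlap between the groups, but the separation rested on *Cd34*, which was under 1 FPKM and did not pass. With *Cd34* left out, chosen after seeing the data, they were 0.72, 0.67 and 0.75 in the controls and 0.96, 0.70 and 0.72 in the knockout-labelled livers, and the groups overlapped. No p is given for these scores, since the members were chosen as a group.

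**Figure D3:**
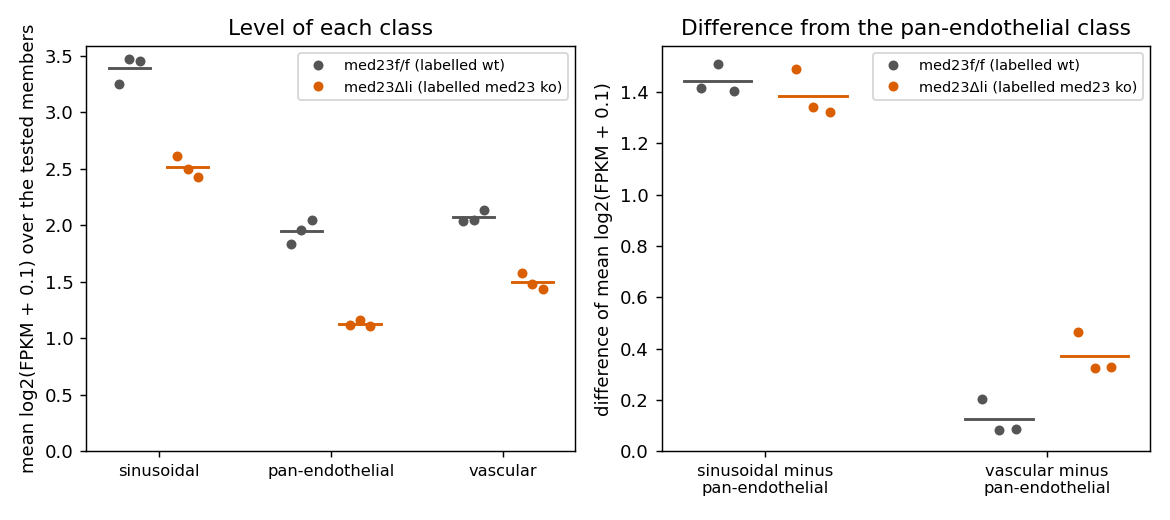
Left: mean log2(FPKM + 0.1) over the tested members of each class in each liver; right: the same mean minus the pan-endothelial mean of that liver. Points stand for livers and lines for group means; every class is lower in the knockout-labelled livers (orange), the sinusoidal difference overlaps between the groups (1.44 and 1.38 on average) and the vascular one does not, though it does once Cd34 is left out (0.71 and 0.79 on average).

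Single genes were also set against *Pecam1* within each library, as log2 of the FPKM ratio, for the 8 genes that stood as examples of the classes. For *Clec4g* this ratio was 2.93, 3.58 and 3.10 in the control livers and 2.61, 2.73 and 2.75 in the knockout-labelled livers. For *Stab2* it was −0.33, −0.42 and −0.20 in the control livers and −0.69, −0.50 and −0.68 in the knockout-labelled livers. Both were lower in each knockout-labelled liver than in each control liver. The mean differences were −0.51 and −0.31. For *Cdh5* the mean ratio was 0.39 ± 0.148 and 0.36 ± 0.0910, and for *Plvap* 3.10 ± 0.191 and 3.13 ± 0.153 (SD, n = 3 each), which differ by less than their spread. The differences for *Lyve1*, *Oit3*, *Tie1* and *Vwf* were −0.30, −0.19, −0.10 and −0.40. Exact two-sided permutation tests gave p = 0.1 for *Clec4g*, *Stab2*, *Tie1* and *Vwf*, the smallest that 3 against 3 allows, and 0.200 after adjustment over the 8 ratios, so that no ratio could pass.

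When each library was instead centred on its pan-endothelial members before the fit, 0 of the 12 sinusoidal genes were called lower and 0 higher (limma). The median log2 fold change of the sinusoidal genes was then −0.15. *Clec4g* came nearest to the threshold (log2 fold change −0.45, adjusted p = 0.0508, limma). *Gata4*, *Bmp2* and *Dnase1l3* had values above 0, of 0.34, 0.28 and 0.28. Of the vascular genes *Cd34* was called higher on this scale (log2 fold change 0.92, adjusted p = 0.0168, limma). This scale raises the median of all genes to 0.85 and calls 72.9% of them higher and 1.11% lower, so it describes levels relative to endothelial transcripts only.

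Markers of the other cells of the liver were read beside these values. Of the 8 Kupffer cell and macrophage markers, 0 were called lower and 0 higher (limma), with a median log2 fold change of −0.15, and at an unadjusted p under 0.05 the counts were 2 and 0, beside 17.1% and 20.5% of all genes. Both that were lower at this level are genes of resident Kupffer cells, but *Cd5l* and *Timd4*, also genes of such cells, were not lower. These had log2 fold changes of 0.11 and 0.10 with overlapping groups, and were named after their values were seen. Over the list, 5 fold changes lay below 0 and 3 above. *Clec4f*, a lectin, had 23.3 ± 2.45 and 18.0 ± 0.852 FPKM without overlap (log2 fold change −0.37, adjusted p = 0.0818, limma), and *Vsig4*, a complement receptor, had 12.7 ± 3.01 and 8.75 ± 1.19 FPKM (log2 fold change −0.51, adjusted p = 0.110, limma), and they were named after their values were seen. The summed level of the list was 190.4 to 259 FPKM in the control livers and 220.3 to 232 FPKM in the knockout-labelled livers, of which *Cd68*, a gene of all macrophages, had the highest mean and was named for it after its values were seen, with 75.4 ± 29.8 and 87.9 ± 9.39 FPKM. The sum stood at 97.1% of the control mean, and at 87.8% with *Cd68* left out, an alternative chosen after seeing the data. These cells also use *Stab1*, *Fcgr2b*, *Eng* and *Thbd*. Of 9 stellate cell markers, 3 (*Des*, *Colec11* and *Ecm1*) were called lower, beside 9.48% of all genes, with a median of −0.52 and summed levels of 176 to 224 FPKM in the control livers and 119 to 152 FPKM in the knockout-labelled livers. *Colec11*, a collectin, fell from 10.8 ± 0.737 to 6.40 ± 0.402 FPKM (log2 fold change −0.74, adjusted p = 0.00916, limma), while *Reln*, a marker of resting stellate cells, had 2.38 ± 0.422 and 3.34 ± 0.561 FPKM (log2 fold change 0.47, adjusted p = 0.122, limma). Of 2 tested platelet genes, 1 was called lower, *Itga2b* (log2 fold change −0.91, adjusted p = 0.0321, limma), beside 9.48% of all genes, and the list summed to 5.59 to 8.00 FPKM in the control livers and 2.30 to 5.56 FPKM in the knockout-labelled livers. *Gp9*, named after its values were seen, was listed at 0 in every control library. Platelet precursors also use *Vwf*, *Tal1* and *Lyl1*.

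None of the 4 neutrophil, 2 smooth muscle, 5 cholangiocyte, 6 hepatocyte and 2 proliferation genes tested was called (limma), with median log2 fold changes of −0.50, −0.40, −0.06, −0.43 and −0.01. At an unadjusted p under 0.05 the counts were 2, 0, 0, 3 and 0 lower and 0, 0, 0, 0 and 0 higher, beside 17.1% and 20.5% of all genes. Their summed levels overlapped between the groups for neutrophil, cholangiocyte, hepatocyte and proliferation genes, but not for smooth muscle genes, with 25.03 to 33.0 FPKM in the control livers and 16.9 to 24.7 FPKM in the knockout-labelled livers. The 6 lymphocyte markers all lay under the filter, with sums of 0.666 to 1.56 FPKM in the control livers and 0.919 to 1.84 FPKM in the knockout-labelled livers. Over the endothelial classes the sums did not overlap. For the sinusoidal members they were 157 to 204 FPKM in the control livers and 83.4 to 93.6 FPKM in the knockout-labelled livers, for the pan-endothelial members 116 to 132 FPKM in the control livers and 63.4 to 69.0 FPKM in the knockout-labelled livers and for the vascular members 61.8 to 88.8 FPKM in the control livers and 43.0 to 47.7 FPKM in the knockout-labelled livers. As a share of the control mean these were 48.9%, 52.9% and 60.7%, beside 97.1% for Kupffer cell and macrophage markers (87.8% without *Cd68*), 71.5% for stellate cell markers and 56.0% for platelet genes. Most of the vascular sum was *Plvap*, with on average 61.1 of 74.8 FPKM in the control livers and 36.6 of 45.4 FPKM in the knockout-labelled livers. The stellate, platelet and smooth muscle sums did not overlap between the groups either, the last at 77.5% of the control mean, and their part in the endothelial values was not tested. Hepatocyte genes, which define the labelled tissue, summed to 23309 to 33073 FPKM in the control livers and 19294 to 25906 FPKM in the knockout-labelled livers.

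**Figure D4:**
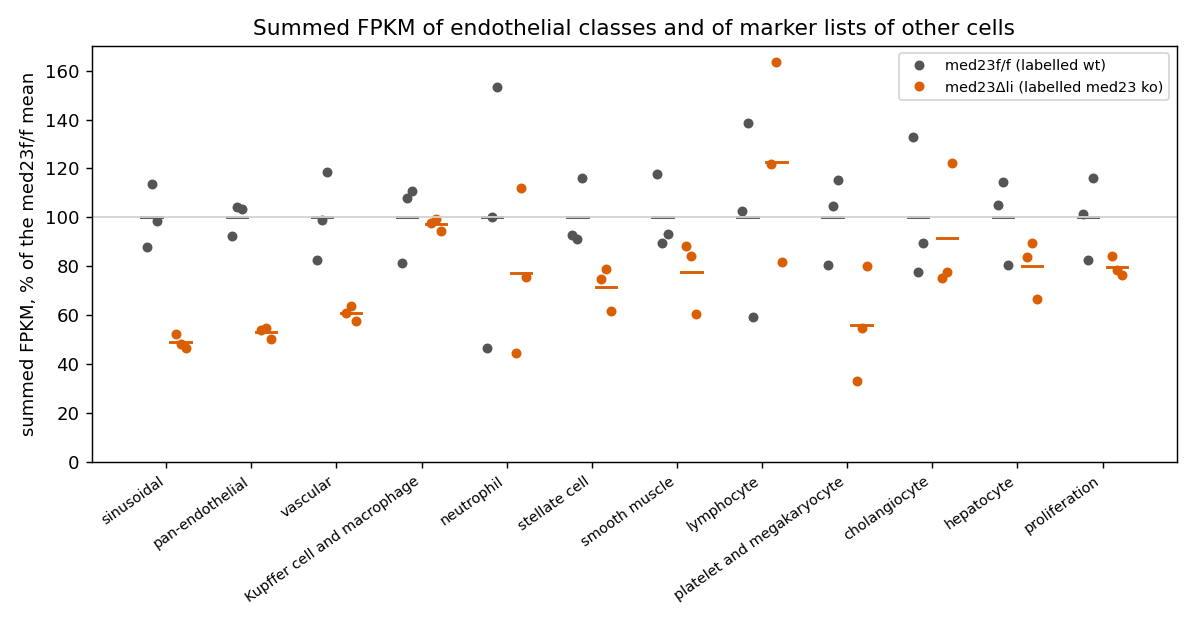
Summed FPKM of the endothelial classes and of marker lists of other cells in each liver, as a percentage of the med23f/f mean of that list (horizontal line at 100); points stand for livers and short lines for group means. The endothelial sums of the knockout-labelled livers (orange) average 48.9%, 52.9% and 60.7%, the platelet sum 56.0%, the stellate cell sum 71.5% and the Kupffer cell and macrophage sum 97.1% (87.8% with Cd68 left out).

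Ligands and partners of the endothelial receptors were then examined from pathway lists. Of the 8 tested VEGF and angiopoietin ligands and co-receptors, 0 were called lower and 0 higher (limma), beside 9.48% and 11.6% of all genes. At an unadjusted p under 0.05 the counts were 3 and 1, beside 17.1% and 20.5% of all genes. *Vegfa*, which hepatocytes make and which signals through *Kdr*, had 33.7 ± 5.22 and 34.9 ± 2.53 FPKM (SD, n = 3 each; log2 fold change 0.06, adjusted p = 0.805, limma), with a 95% interval of −0.29 to 0.41, and was named after its values were seen, as the ligand of *Kdr*. *Vegfb* had the highest fold change (log2 fold change 0.67, adjusted p = 0.0974, limma) and *Pgf* the lowest (log2 fold change −1.9, adjusted p = 0.0873, limma), the latter with control values of 26.2, 4.16 and 21.1 FPKM that overlapped the others. Of the 2 tested genes among *Wnt2*, *Wnt9b*, *Rspo3* and *Apln*, 0 were called lower and 0 higher (limma), beside 9.48% and 11.6% of all genes. At an unadjusted p under 0.05 the counts were 0 and 0, beside 17.1% and 20.5%, and 2 genes are too few to set against these shares. *Rspo3*, a central vein signal that sets hepatocyte zones, had 3.02 ± 0.957 and 2.38 ± 0.536 FPKM (log2 fold change −0.31, adjusted p = 0.409, limma) and *Wnt2* 0.911 ± 0.388 and 0.844 ± 0.167 FPKM (log2 fold change −0.05, adjusted p = 0.928, limma).

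Among Notch partners and targets, 5 of 10 were tested, and 3 were called lower and 0 higher, beside 9.48% and 11.6% of all genes. *Notch4*, the receptor found mainly in endothelium, fell from 1.12 ± 0.144 to 0.478 ± 0.0573 FPKM (log2 fold change −1.07, adjusted p = 0.0205, limma), and the ligand *Dll1* from 1.88 ± 0.315 to 0.905 ± 0.0821 FPKM (log2 fold change −0.97, adjusted p = 0.0177, limma). For *Hes1*, the controls gave 18.1, 20.3 and 19.6 FPKM and the knockout-labelled mice 7.30, 7.07 and 13.9. *Hes1*, a transcription factor induced by Notch in many cell types, was lower in every knockout-labelled liver than in any control (log2 fold change −1.10, adjusted p = 0.0220, limma). *Jag1*, a ligand used in bile duct formation, had the highest fold change of the list (log2 fold change 0.29, adjusted p = 0.466, limma) and did not pass.

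The BMP list held the largest changes around the endothelial genes. Of its 10 genes, all tested, 6 were called lower and 1 higher, where 9.48% and 11.6% of all genes were. *Bmp6* stood at 1.16, 2.05 and 2.53 FPKM in the controls, against 13.8, 10.5 and 13.6 FPKM in the knockout-labelled livers. *Bmp6*, the ligand by which sinusoidal cells report iron stores to hepatocytes, rose in every knockout-labelled liver (log2 fold change 2.72, standard error 0.27, adjusted p = 0.00173, limma). Control livers held 4.97, 6.67 and 6.89 FPKM of *Gdf2*, where the knockout-labelled ones held 2.75, 3.15 and 2.74. *Gdf2* encodes BMP9, a ligand made by stellate cells that signals through *Eng* and *Acvrl1* on endothelium (log2 fold change −1.06, adjusted p = 0.00737, limma). *Acvrl1*, the gene of the receptor ALK1, had 1.72 ± 0.219 and 1.28 ± 0.216 FPKM (log2 fold change −0.40, adjusted p = 0.194, limma), and *Bmpr2* 2.31 ± 0.444 and 2.80 ± 0.127 FPKM (log2 fold change 0.28, adjusted p = 0.295, limma), and neither passed. These receptors were named after their values were seen.

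Genes induced by BMP signalling were among those that fell. For *Id1*, the controls gave 155, 179.8 and 121 FPKM and the knockout-labelled mice 19.5, 18.8 and 23.6, a drop to 13.6% of the control mean (log2 fold change −2.86, standard error 0.18, adjusted p = 0.000322, limma). *Id2* fell from 261 ± 60.5 to 82.5 ± 1.53 FPKM (log2 fold change −1.64, adjusted p = 0.00233, limma) and *Id3* from 335 ± 37.2 to 121 ± 14.8 FPKM (log2 fold change −1.46, adjusted p = 0.00179, limma), SD with n = 3 each. *Smad7* and *Smad6*, inhibitors that the pathway induces in feedback, fell from 6.41 ± 1.01 to 3.09 ± 0.114 FPKM (log2 fold change −1.02, adjusted p = 0.00644, limma) and from 4.99 ± 0.966 to 2.62 ± 0.175 FPKM (log2 fold change −0.89, adjusted p = 0.0132, limma). The ID and SMAD genes are used by hepatocytes as well as by endothelium, and whole-liver values do not say in which cells they fell.

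**Figure D5:**
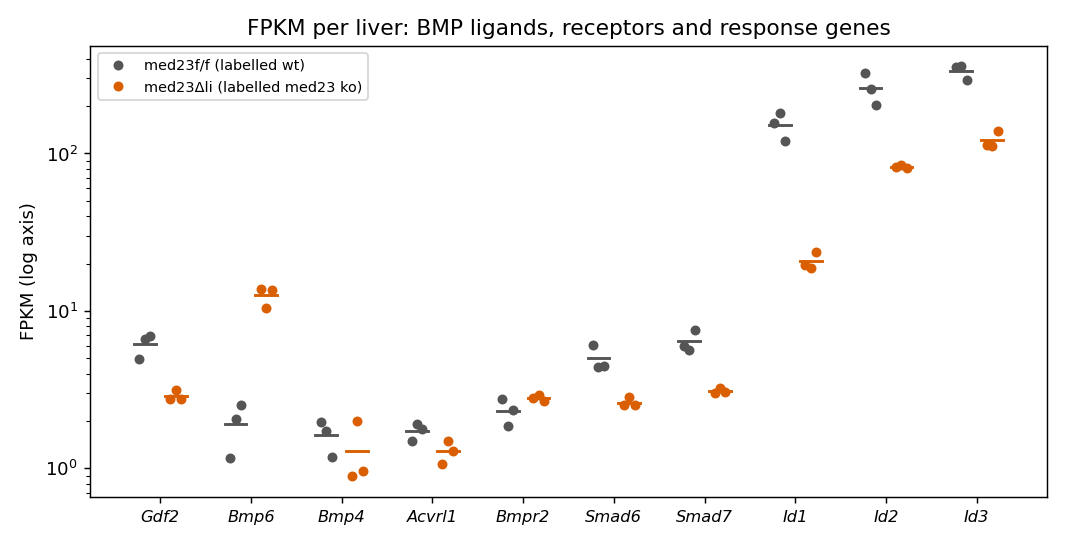
FPKM (log axis) of BMP ligands, receptors and response genes in each liver; points stand for livers and short lines for group means (med23f/f grey, knockout-labelled livers orange). The orange points of Bmp6 (10.5 to 13.8 FPKM) lie above its grey points (1.16 to 2.53 FPKM), and those of Gdf2, Smad6, Smad7, Id1, Id2 and Id3 lie below theirs.

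Of the 8 genes of flow response and leukocyte adhesion, 0 were called lower and 0 higher (limma), beside 9.48% and 11.6% of all genes. The median log2 fold change was −0.34. At an unadjusted p under 0.05 the counts were 2 and 1, beside 17.1% and 20.5% of all genes. *Esm1*, a secreted product of activated endothelium, had 0.840 ± 0.337 and 0.385 ± 0.0203 FPKM (log2 fold change −0.88, adjusted p = 0.107, limma). It had the lowest fold change of the list. *Klf4*, a factor induced by flow that other cells also use, had the highest. It was higher in each knockout-labelled liver than in any control without passing (log2 fold change 1.23, adjusted p = 0.0556, limma).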

How the data were processed

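Whole-liver RNA of 6 mice was sequenced as paired reads from TruSeq v2 libraries. The authors trimmed adapters, aligned the reads with TopHat to mm10 and deposited FPKM values per gene and library from Cuffdiff. Tool versions, gene annotation and Cuffdiff options are not given in the sources used here. The table also holds the authors' group means, log2 fold changes, test statistics, p-values, q-values and calls, which were not used. Each library is labelled as a separate sample, and p-values measure the spread between these samples.

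Genes that averaged 0.5 FPKM or more (11956 of 24346) were fitted as log2(FPKM + 0.1) with limma 3.58.1 in R 4.3.3 (eBayes with trend, group as the only term), and p-values were adjusted by Benjamini-Hochberg over all genes tested. Fold changes on this scale understate those of low genes. The script was checked on simulated data. Single genes and ratios were also given exact two-sided permutation tests, whose smallest p is 0.1 with 3 against 3. No test was run over a gene list. The members, classes and other lists were chosen with earlier results of these data known. All 39 members are named, with every library's value for those called and for the 9 class examples (*Clec4g*, *Stab2*, *Lyve1*, *Oit3*, *Pecam1*, *Cdh5*, *Tie1*, *Vwf*, *Plvap*). Genes outside the members were eligible to be named if they passed or were the highest or lowest of their list, and not all of these are named. Exceptions are stated where they occur. Gene coordinates come from GENCODE M21 and promoter windows from RefSeq, both on GRCm38, the assembly of mm10. Alternatives were pseudocounts of 1 and 0.01, no filter and a filter at 1 FPKM, median centring, quantile normalization, centring on pan-endothelial genes, other eBayes settings, a replicate block, stricter thresholds and leaving out each library, and, chosen after seeing the data, leaving *Cd34* or *Cd68* out of a score.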

Additional observations from a re-analysis of the deposited data

How the results depend on the processing

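The number of endothelial genes called lower, 26, lay between 24 (no filter on low values, with 4.83% of all genes lower) and 29 (libraries centred on their medians, 10.5%) over the other pseudocounts, filters, scalings and variance settings of limma, and none was called higher under any of them, although centring on the pan-endothelial genes, described above, called *Cd34* higher. It was 13 with a change past 2-fold, beside 3.45% of all genes. At an adjusted p under 0.01 it was 14, for which the share of all genes is not given here. Leaving out 1 library gave 16 to 25, the lowest without knockout replicate 1, where 2.96% to 11.9% of all genes were called lower. With the replicate block it was 21, with 5.14% of all genes lower: *Gata4*, *Tek*, *Ptprb*, *Mmrn2* and *Vwf* no longer passed. Libraries with the same number deviated from their group means with correlations of −0.0222, −0.0459 and −0.124, and 0 of 6 libraries correlated best with their own number in the other group, so the numbers were not taken to pair the mice. With a pseudocount of 1 the median log2 fold changes were −0.81 (sinusoidal), −0.64 (pan-endothelial) and −0.52 (vascular), and the sinusoidal minus pan-endothelial level differed by −0.17 between the groups, since a larger pseudocount shrinks the change of low genes. Over the fits without 1 library these values ran from −1.03 to −0.89, −0.89 to −0.77, −0.80 to −0.56 and −0.11 to −0.025. With *Cd34* left out, an alternative chosen after seeing the data, the vascular minus pan-endothelial level differed by 0.080 between the groups, against 0.25 with it. The fold change of *Notch1* ran from −0.098 to 0.10 over these fits and was above 0 when control replicate 3 (0.10), knockout replicate 1 (0.00675) or knockout replicate 3 (0.0203) was left out, and that of *Cd34* was −0.012 without control replicate 3. Centring on the pan-endothelial genes, which lifts all genes, turned *Stab1* to 0.059, *Bmp2* to 0.28, *Gata4* to 0.34, *Dnase1l3* to 0.28, *Plvap* to 0.10, *Thbd* to 0.23 and *Emcn* to 0.21. *Gata4* also failed with a pseudocount of 1, no filter, no trend and robust variances, and *Lyve1* with no filter, while *Dnase1l3*, *Sox17* and *Flt1* passed under median centring. FPKM values carry no depth, so counting error could not be set apart from the spread between mice.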

Other observations

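Further endothelial genes outside the 39 were in part lower. Of 17 tested genes of a list of 19, 6 were called lower and 0 higher (limma), beside 9.48% and 11.6% of all genes, with a median log2 fold change of −0.62. The groups did not overlap in 11 that were lower and 1 that was higher, beside 20.4% and 23.3% of all genes. *Clec14a* stood at 2.17, 2.77 and 2.18 FPKM in the controls, against 0.898, 1.17 and 1.11 FPKM in the knockout-labelled livers. *Clec14a*, a glycoprotein of endothelial surfaces, fell to 44.7% of the control mean (log2 fold change −1.09, adjusted p = 0.0109, limma). Control livers held 9.33, 16.9 and 14.7 FPKM of *Cldn5*, where the knockout-labelled ones held 6.13, 6.71 and 6.29. *Cldn5*, the claudin of endothelial tight junctions, fell to 46.7% (log2 fold change −1.04, adjusted p = 0.0165, limma). *Ramp2*, which encodes part of the adrenomedullin receptor, fell from 12.7 ± 1.49 to 6.62 ± 1.6 FPKM (log2 fold change −0.96, adjusted p = 0.0169, limma). *Mrc1*, the mannose receptor of sinusoidal cells and macrophages, fell from 4.57 ± 0.271 to 2.83 ± 0.0309 FPKM (log2 fold change −0.67, adjusted p = 0.0147, limma), *Cd93* from 3.11 ± 0.613 to 1.83 ± 0.301 FPKM (log2 fold change −0.73, adjusted p = 0.0422, limma) and *Ecscr* from 4.84 ± 0.567 to 3.11 ± 0.596 FPKM (log2 fold change −0.63, adjusted p = 0.0460, limma).

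The gene without overlap in the other direction was *S1pr1*, a receptor for sphingosine-1-phosphate that endothelium uses to keep its barrier. For *S1pr1*, the controls gave 16.4, 14.9 and 10.9 FPKM and the knockout-labelled mice 16.9, 21.2 and 19.0, so the groups did not overlap, but the change did not pass (log2 fold change 0.45, adjusted p = 0.110, limma).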
